A study of Mus musculus with 12 samples.

Results

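Genes that control the step of a cell from G1 into DNA synthesis were followed across 3 progenitor types of mouse bone marrow. The set holds 9 genes, chosen by name as the D and E cyclins, the kinases they activate and the retinoblastoma protein RB1: Ccnd1, Ccnd2, Ccnd3, Ccne1, Ccne2, Cdk2, Cdk4, Cdk6 and Rb1. These are 9 of the 38924 Ensembl gene identifiers in the deposited table, and all 9 were among the 12718 tested, which had at least 1 TPM (transcript abundance per gene length, scaled to 1 fixed total per library) in at least 4 libraries. The 12 RNA-seq libraries came from female C57Bl/6J mice with no genetic change or treatment named in the labels. Lymphoid-primed multipotent progenitors (LMPP) were sorted as Lin- Sca1+ cKit+ CD150- CD34+ Flk2hi, common lymphoid progenitors (CLP) as Lin- Sca1lo cKitlo IL7Ra+ Flk2+, and granulocyte-monocyte progenitors (GMP) as Lin- Sca1- cKit+ CD150- CD34+ FcgR+ cells. Each type has 4 libraries, 2 in each of 2 batches named in the titles, and no source used here gives the age of their donors. Separate animals are not named as the origin of the 4 libraries of a type, and the p-values therefore speak only of library-to-library spread, part of which may be technical.

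D cyclins are made in response to growth signals and bind the kinases CDK4 and CDK6. The active pairs phosphorylate RB1, which otherwise holds E2F transcription factors inactive, and freed E2F raises the E cyclins. E cyclins activate CDK2, which completes RB1 phosphorylation and starts DNA replication. In blood cells the D cyclins are used in different measure by different lineages, and cyclin D3 is known for its role in the expansion of early B and T cell precursors.

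The surface genes followed the gates in most libraries. Flt3, which encodes Flk2, was at 101.58 to 156 TPM in LMPP and 2.8 to 3.67 TPM in GMP, but the CLP libraries split into 138.28 and 146.13 TPM (batch 1) against 8.91 and 16.98 TPM (batch 2). The CLP libraries of batch 2 thus stood apart from those of batch 1 in a gene of their own gate, while Il7r was at 76.64 to 129.77 TPM in all 4. Summed levels of the 10 GMP markers were 21375 to 26526 TPM in GMP and at most 2179 TPM in the other types. LMPP batch 2 replicate 1 and CLP batch 2 replicate 1, here called the haemoglobin-rich pair, held the most red cell and neutrophil RNA: the 10 erythroid markers summed to 28570 and 13618 TPM there, against at most 2478 TPM in the other 10 libraries, and the 11 neutrophil and macrophage markers to 25929 and 11958 TPM, against at most 1952 TPM. Where leaving out the CLP libraries of batch 2 or the haemoglobin-rich pair ended a call for 1 of the 9 genes or in a pathway list, the result without them is given beside it. In bulk RNA, fewer cells of a type and less RNA per cell cannot be told apart.

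The D cyclin in largest use was Ccnd3 in every CLP library. It was Ccnd2 in every GMP library and in 3 of 4 LMPP libraries. The ratio of Ccnd3 to Ccnd2 was 0.79 to 0.90 in GMP and 0.80 to 1.32 in LMPP, with overlapping ranges. Ccnd3 encodes cyclin D3 and lies on chromosome 17, 47505051 to 47599691 on the plus strand of mm10. It was at 40.73 and 42.77 TPM in the batch 1 and 58.21 and 46.28 TPM in the batch 2 libraries of LMPP. The CLP libraries held 167.38 and 83.08 TPM (batch 1) and 268.51 and 326.45 TPM (batch 2), and the GMP libraries 29.59, 27.04, 32.88 and 33.29 TPM. The ranges of the 3 types did not overlap, in the order CLP, LMPP, GMP, and the lowest CLP library still lay above the highest LMPP library. The mean was 211 ± 108 TPM for CLP, 47.0 ± 7.82 TPM for LMPP and 30.7 ± 2.95 TPM for GMP (SD, n = 4). In limma, Ccnd3 was lower in LMPP than in CLP by a log2 difference of -1.98 (SE 0.256, adjusted p = 0.00093) and higher in CLP than in GMP by 2.57 (SE 0.256, adjusted p = 3.42e-05). By mean TPM these are a 4.50-fold and a 6.88-fold excess in CLP. Between LMPP and GMP the log2 difference of 0.59 (95% interval 0.03 to 1.15) had an adjusted p of 0.102, and 0.0263 when the CLP libraries of batch 2, which enter that comparison only through the shared spread, were left out.

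**Figure D1:**
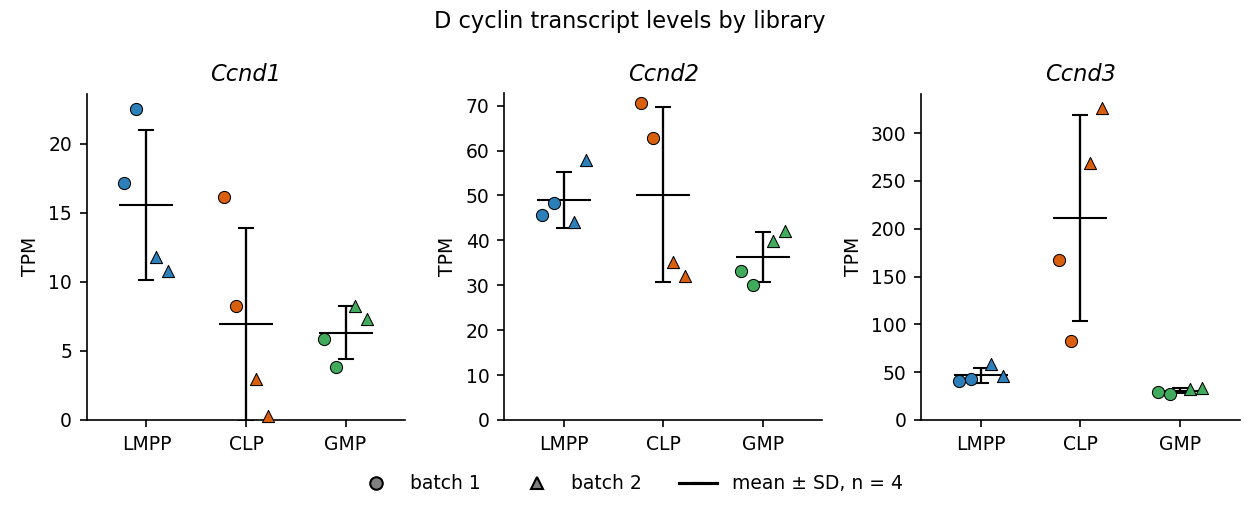
TPM of the 3 D cyclin genes in each of the 12 libraries, with 1 panel per gene, circles for batch 1, triangles for batch 2, and a bar with whiskers for the mean ± SD of 4 libraries. In the Ccnd3 panel every CLP library, from 83.08 to 326.45 TPM, lies above every LMPP and GMP library, and the Ccnd1 and Ccnd2 panels show the 2 CLP batches apart.

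Both Ccnd3 differences kept their direction and a limma adjusted p under 0.05 in each of 14 other settings and in each of 12 fits that left out 1 library. Within batch 1 alone the log2 difference was -1.48 for LMPP against CLP (adjusted p = 0.0301) and 2.02 for CLP against GMP (adjusted p = 0.00371), and within batch 2 alone -2.49 (adjusted p = 0.00579) and 3.12 (adjusted p = 0.00113). Without the CLP libraries of batch 2 the values were -1.46 (adjusted p = 0.00717) and 2.04 (adjusted p = 0.000196), and without the haemoglobin-rich pair -1.92 (adjusted p = 0.0087) and 2.49 (adjusted p = 0.000291), all from limma.

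Promoter sequence is shown for Ccnd3 and Ccne1, which were both highest in CLP and are the members called in both comparisons with CLP for which RefSeq windows were at hand. In all, 5 of the 9 genes matched a RefSeq start site in build GRCm38.p6 (Ccnd3 with 2 sites, and Ccne1, Cdk2, Cdk4 and Cdk6 with 1 each). The 250 bases before each start are printed 5′ to 3′ on the gene's strand, with the GC box (GGGCGG or its reverse complement CCGCCC) in capitals. The windows are chr17:47504801-47505050 and chr17:47593217-47593466, both plus strand, for the upstream and downstream Ccnd3 starts, and chr7:38107491-38107740, minus strand, for Ccne1. The table sums all transcripts of a gene, so it does not show which Ccnd3 start was in use.
Ccnd3 upstream start: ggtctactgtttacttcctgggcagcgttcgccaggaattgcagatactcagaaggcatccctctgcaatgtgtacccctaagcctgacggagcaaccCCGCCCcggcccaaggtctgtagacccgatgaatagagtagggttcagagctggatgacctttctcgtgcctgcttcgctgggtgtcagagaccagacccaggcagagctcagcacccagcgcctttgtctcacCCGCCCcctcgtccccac
Ccnd3 downstream start: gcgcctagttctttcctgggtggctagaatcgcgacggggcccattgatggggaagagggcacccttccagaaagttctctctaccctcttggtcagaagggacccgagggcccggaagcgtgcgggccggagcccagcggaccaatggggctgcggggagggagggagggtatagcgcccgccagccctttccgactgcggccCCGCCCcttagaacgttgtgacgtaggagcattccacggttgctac
Ccne1: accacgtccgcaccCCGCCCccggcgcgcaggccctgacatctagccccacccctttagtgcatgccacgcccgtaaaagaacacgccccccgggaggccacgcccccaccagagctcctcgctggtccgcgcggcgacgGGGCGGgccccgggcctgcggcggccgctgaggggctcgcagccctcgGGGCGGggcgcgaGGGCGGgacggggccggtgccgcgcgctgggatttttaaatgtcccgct
The 2 Ccnd3 windows hold 2 and 1 GC boxes and the Ccne1 window holds 4. At least 1 GC box was present in 32.7% of the 32851 RefSeq windows of the same length, and at least 4 in 4.09%. The E2F motif (TTTCGCGC, TTTGGCGC, TTTCCCGC or TTTGCCGC, on both strands) was not in these windows. Among the 5 matched genes only Cdk2 had a match, which began 140 bases before its start, against 1.86% of all windows. The E box CACGTG, a palindrome, occurred 4 times before Cdk4 and 1 time before Cdk6, against at least 1 time in 6.02% and at least 4 times in 0.0213% of all windows. A STAT motif (TTCNNNGAA, the same on both strands) was in none of the 6 windows, against 7.02% of all windows. These counts describe letters in a window and not binding.

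Ccnd2 encodes cyclin D2, on chromosome 6, 127125162 to 127152193 on the minus strand. It was at 45.71, 48.38, 44.08 and 57.94 TPM in LMPP and at 33.19, 30.11, 39.80 and 42.07 TPM in GMP, so that every LMPP library lay above every GMP library. The CLP libraries held 70.68 and 62.90 TPM (batch 1) and 35.09 and 32.06 TPM (batch 2). Those of batch 1 lay above all other libraries, and those of batch 2 lay below every LMPP and GMP library of that batch. No difference between types was called in limma over both batches: the log2 difference was 0.43 (95% interval -0.09 to 0.95, adjusted p = 0.196) for LMPP against GMP, 0.39 (adjusted p = 0.262) for CLP against GMP and 0.04 (adjusted p = 0.933) for LMPP against CLP. In batch 1 alone, Ccnd2 was higher in CLP than in GMP by 1.05 (limma adjusted p = 0.00247). In batch 2 alone the difference was -0.28 (adjusted p = 0.37), and the limma test of the difference between the batches gave -1.33 (SE 0.232, adjusted p = 0.0116). When the CLP libraries of batch 2 were left out, the difference was 0.99 for CLP against GMP (limma adjusted p = 0.00139), 0.43 for LMPP against GMP (adjusted p = 0.0165) and -0.56 for LMPP against CLP (adjusted p = 0.0626).

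Ccnd1, the gene of cyclin D1, lies on chromosome 7, 144929931 to 144939925 on the minus strand, and was the lowest D cyclin in every library. LMPP libraries held 17.12 and 22.49 TPM (batch 1) and 11.79 and 10.77 TPM (batch 2), and GMP libraries 5.89, 3.83, 8.25 and 7.32 TPM, without overlap between these types. CLP spread furthest, with 16.16 and 8.25 TPM (batch 1) against 2.95 and 0.31 TPM (batch 2). The log2 difference was 1.16 for LMPP against GMP (95% interval -0.02 to 2.34, limma adjusted p = 0.128), 1.57 for LMPP against CLP (adjusted p = 0.0857) and -0.41 for CLP against GMP (adjusted p = 0.625). The LMPP excess over GMP was called without CLP batch 2 replicate 2 (limma adjusted p = 0.0319), and that over CLP without CLP batch 1 replicate 1 (adjusted p = 0.0376). Batch 1 alone gave 1.84 for LMPP against GMP (limma adjusted p = 0.00912), and batch 2 alone 0.48 (adjusted p = 0.601). The difference between these batch values was -1.35 (adjusted p = 0.57). The LMPP excess over CLP was 0.71 in batch 1 alone (limma adjusted p = 0.209) and 2.43 in batch 2 alone (adjusted p = 0.0499). Without both CLP libraries of batch 2 it came to 0.37 (limma adjusted p = 0.591), while the difference of LMPP over GMP stayed at 1.16 and was called (adjusted p = 0.00922). In that setting the sign for CLP against GMP turned, to 0.79 (adjusted p = 0.162). With the haemoglobin-rich pair left out, the values were 1.53 for LMPP against CLP (limma adjusted p = 0.192) and 1.11 for LMPP against GMP (adjusted p = 0.227).

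The share of each D cyclin in their summed TPM puts these levels on one scale. Ccnd3 made up 74.6 ± 17.7% of the sum in CLP (SD, n = 4), with 65.8% and 53.9% in batch 1 and 87.6% and 91.0% in batch 2. In LMPP its share was 42.1 ± 6.07% and in GMP 42.1 ± 1.96%, so CLP was the only type in which all 4 libraries had most of their D cyclin transcript from 1 gene. Without the CLP libraries of batch 2 the CLP share was 59.9%. Ccnd2 made up 43.9 ± 4.88% in LMPP, 22.2 ± 14.9% in CLP and 49.4 ± 1.06% in GMP. Ccnd1 made up 14.0 ± 4.99%, 3.19 ± 3.12% and 8.48 ± 1.63% in the same order. Within LMPP, Ccnd2 exceeded Ccnd3 in 3 of 4 libraries with overlapping ranges, and the exception was the haemoglobin-rich LMPP batch 2 replicate 1, at 51.0% Ccnd3. Within GMP, Ccnd2 exceeded Ccnd3 in 4 of 4 libraries, although the ranges overlapped between batches. The summed D cyclin level came to 112 ± 5.37 TPM for LMPP, 268 ± 87.3 TPM for CLP and 73.3 ± 10.3 TPM for GMP, with no overlap between the types. These shares are descriptions and were not tested.

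**Figure D2:**
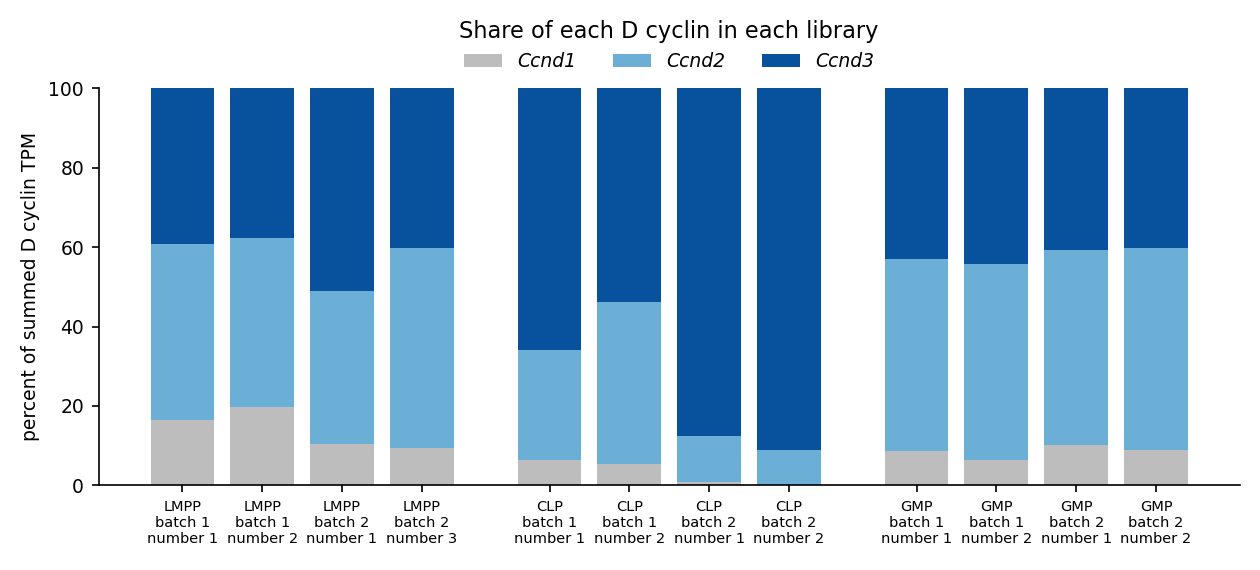
Percent of the summed D cyclin TPM held by Ccnd1, Ccnd2 and Ccnd3, as 1 stacked bar per library, with the batch and the label's number under each bar. Ccnd3 fills 53.9% to 91.0% of the CLP bars and 40.3% to 44.3% of the GMP bars.

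Cdk4 and Cdk6 encode the kinases that D cyclins activate, and both were among the most abundant transcripts of the set. Cdk4, on chromosome 10, 127063534 to 127067920 on the plus strand, was at 395.70, 402.94, 260.56 and 299.95 TPM in the LMPP libraries, 438.31, 495.25, 317.90 and 247.59 TPM in CLP and 418.23, 366.29, 364.33 and 361.58 TPM in GMP. In LMPP and CLP both batch 1 libraries lay above both batch 2 libraries, and the ranges of all 3 types overlapped. The 95% interval of its log2 difference was -0.42 to 0.20 for LMPP against CLP, -0.48 to 0.14 for LMPP against GMP and -0.37 to 0.25 for CLP against GMP. Its direction in both comparisons with LMPP depended on the scaling of the libraries. For LMPP against GMP it was -0.17 as deposited, -0.44 with median-ratio scaling (limma adjusted p = 0.0219) and 0.03 after quantile normalization.

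Cdk6, on chromosome 5, 3341485 to 3531008 on the plus strand, was at 243.44, 274.76, 205.48 and 265.42 TPM in the LMPP libraries, 194.13, 179.57, 192.90 and 159.66 TPM in CLP and 222.14, 209.69, 275.02 and 314.42 TPM in GMP. Every CLP library lay below every library of the other types. The log2 difference was -0.47 for CLP against GMP (SE 0.15, limma adjusted p = 0.0375), a mean GMP level 1.41 times that of CLP, and 0.44 for LMPP against CLP (95% interval 0.11 to 0.77, adjusted p = 0.0831). The call for CLP against GMP was lost when LMPP batch 1 replicate 1, CLP batch 1 replicate 2, either CLP library of batch 2 or either GMP library of batch 2 was left out, with adjusted p from 0.0516 to 0.13. It was also lost in 7 of the 14 other settings, among them batch 1 alone, at -0.21 (limma adjusted p = 0.261), and without both CLP libraries of batch 2, at -0.36 (adjusted p = 0.18).

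Cdk4 exceeded Cdk6 in all 12 libraries. Cdk6 made up 42.4 ± 3.90% of the summed kinase level in LMPP, 33.6 ± 5.95% in CLP and 40.2 ± 5.55% in GMP. The kinase sum was 587 ± 93.2, 556 ± 121 and 633 ± 41.6 TPM in the same order, with overlapping ranges. Set against the D cyclins, the summed kinase level was 5.28 ± 0.97 times the summed D cyclin level in LMPP, 2.42 ± 1.42 times in CLP and 8.71 ± 0.788 times in GMP. The GMP ratios, from 7.90 to 9.45, lay above all others, while the lowest LMPP ratio of 4.09 fell below the highest CLP ratio of 4.38.

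The E cyclins were low in LMPP and high in CLP. Ccne2, on chromosome 4, 11191351 to 11204779 on the plus strand, was at 7.69, 7.84, 14.64 and 10.39 TPM in LMPP, at 19.99, 12.39, 35.26 and 45.78 TPM in CLP and at 7.76, 7.82, 18.07 and 21.17 TPM in GMP. Within each batch every CLP library lay above every library of the other types, while batch 2 was higher than batch 1 in all 3. The log2 difference was -1.28 for LMPP against CLP (SE 0.212, limma adjusted p = 0.00386) and 0.97 for CLP against GMP (SE 0.212, adjusted p = 0.00606), or a 2.80-fold and 2.07-fold excess of CLP by mean TPM. The adjusted p was 0.0997 without the batch term for LMPP against CLP and 0.142 without it for CLP against GMP. Without the CLP libraries of batch 2 it was 0.0316 and 0.0488, in the same order. The first call was also lost in batch 1 alone (limma adjusted p = 0.0575) and the second in batch 2 alone (adjusted p = 0.0578).

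Ccne1, on chromosome 7, 38097984 to 38107534 on the minus strand, was at 2.29, 3.63, 6.49 and 2.11 TPM in the LMPP libraries, 8.69, 6.04, 12.17 and 13.29 TPM in CLP and 5.42, 2.84, 5.55 and 4.71 TPM in GMP. CLP lay above GMP in every library, and the highest LMPP library, the haemoglobin-rich batch 2 replicate 1, lay above the lowest CLP library. The log2 difference was -1.29 for LMPP against CLP (SE 0.291, limma adjusted p = 0.0181) and 0.95 for CLP against GMP (SE 0.291, adjusted p = 0.033). The first call was lost without LMPP batch 1 replicate 1 (adjusted p = 0.0567) and in 5 of the 14 other settings, among them batch 1 alone (adjusted p = 0.0874), batch 2 alone (adjusted p = 0.1001) and without both CLP libraries of batch 2 (adjusted p = 0.112). The second was lost when CLP batch 1 replicate 1, GMP batch 1 replicate 2, or any CLP or GMP library of batch 2 was left out (adjusted p from 0.0627 to 0.0939). It was also lost in 7 of the 14 other settings, among them batch 1 alone (adjusted p = 0.163), batch 2 alone (adjusted p = 0.157), without both CLP libraries of batch 2 (adjusted p = 0.182) and without the haemoglobin-rich pair (adjusted p = 0.051). Ccne2 exceeded Ccne1 in all 12 libraries, and Ccne1 made up 25.5 ± 6.97% of the E cyclin sum in LMPP, 27.8 ± 4.61% in CLP and 27.4 ± 9.81% in GMP, so the balance of the pair was within the spread of the libraries in every type.

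Cdk2 encodes the kinase of the E cyclins and lies on chromosome 10, 128697939 to 128705031 on the minus strand. It varied least of the set, from 16.70 to 28.26 TPM, with 18.12, 17.81, 19.98 and 21.84 TPM in the LMPP libraries, 24.81, 18.91, 28.26 and 25.74 TPM in CLP and 17.06, 16.70, 19.24 and 18.39 TPM in GMP. CLP averaged 1.37 times the GMP level, and the log2 difference was 0.42 (SE 0.136, limma adjusted p = 0.0414). This call was lost when LMPP batch 1 replicate 1, CLP batch 1 replicate 1, CLP batch 2 replicate 1 or any 1 of the 4 GMP libraries was left out (adjusted p from 0.0587 to 0.116). It was also lost in 9 of the 14 other settings, among them median-ratio scaling (limma adjusted p = 0.0815), batch 1 alone (adjusted p = 0.21) and batch 2 alone (adjusted p = 0.141). Without the haemoglobin-rich pair the value was 0.38 (limma adjusted p = 0.0865) and without both CLP libraries of batch 2 it was 0.36 (adjusted p = 0.134). The log2 difference of Cdk2 in LMPP against CLP was -0.31 (limma adjusted p = 0.173). It was -0.47 and called with median-ratio scaling (limma adjusted p = 0.0428). For LMPP against GMP its sign depended on the scaling, at 0.11 as deposited and -0.14 with median-ratio scaling.

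Rb1, on chromosome 14, 73183673 to 73325822 on the minus strand, separated the batches more than the types. LMPP libraries held 14.37 and 13.06 TPM (batch 1) then 36.19 and 25.82 TPM (batch 2), CLP libraries 13.34 and 11.85 then 51.87 and 56.02 TPM, and GMP libraries 10.79 and 11.56 then 20.82 and 22.34 TPM. In batch 1 the 6 libraries spanned 10.79 to 14.37 TPM, and in batch 2 both CLP libraries stood above the rest. The log2 difference of CLP over GMP was 0.72 (SE 0.223, limma adjusted p = 0.0343) over both batches, 0.16 (adjusted p = 0.545) in batch 1 and 1.28 (adjusted p = 0.0185) in batch 2. The difference between the batches was itself called, at 1.13 (SE 0.274, limma adjusted p = 0.0441). The call over both batches was lost when any CLP or GMP library of batch 2 was left out (adjusted p from 0.0828 to 0.112), and in 9 of the 14 other settings. The value was 0.61 without the haemoglobin-rich pair (limma adjusted p = 0.0975), and without both CLP libraries of batch 2 it was 0.21 (adjusted p = 0.434). That last setting made a call of Rb1 in LMPP against GMP, at 0.38 (limma adjusted p = 0.04997).

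**Figure D3:**
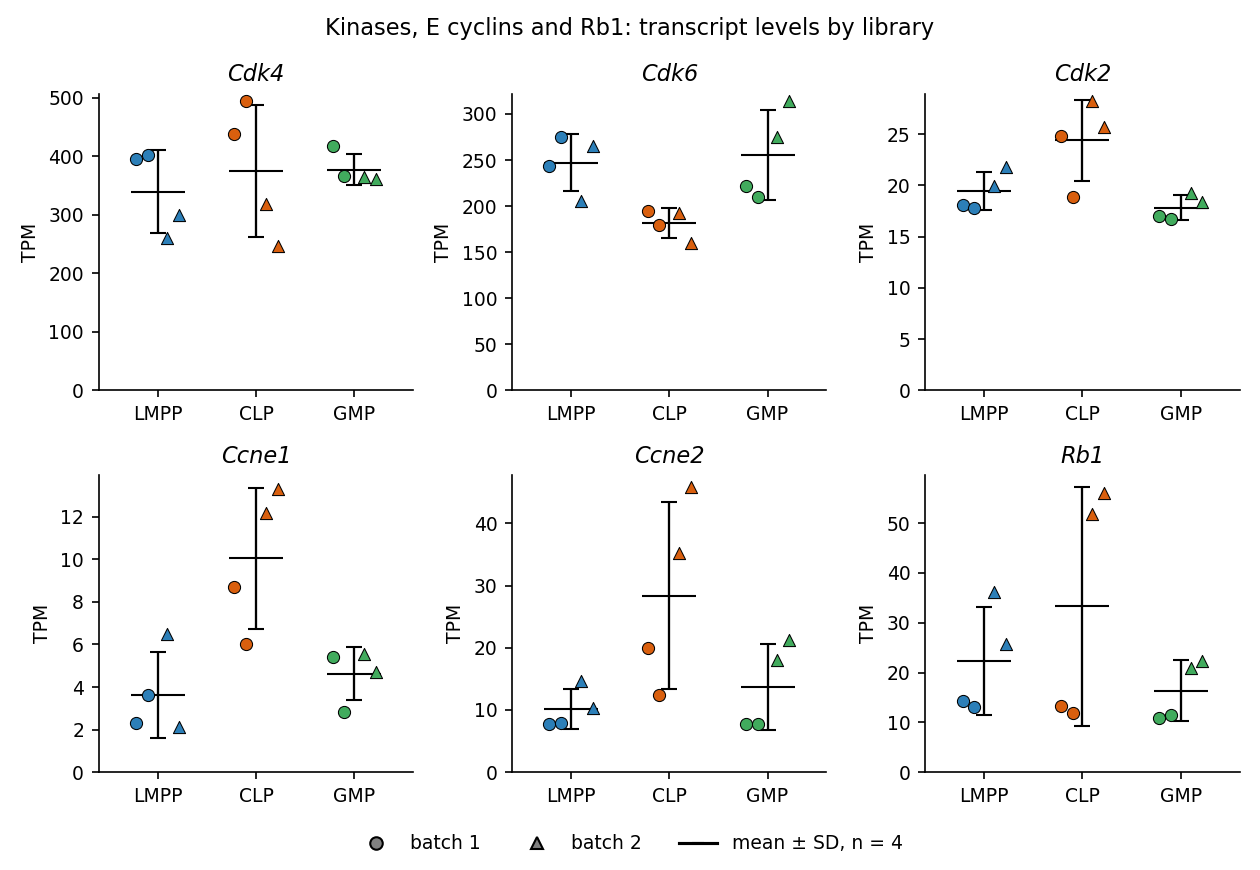
TPM of Cdk4, Cdk6, Cdk2, Ccne1, Ccne2 and Rb1 in each of the 12 libraries, with circles for batch 1, triangles for batch 2 and a bar with whiskers for the mean ± SD of 4 libraries. Ccne2 and Rb1 are higher in batch 2 of every type, and the CLP libraries of Cdk6, from 159.66 to 194.13 TPM, lie below the other types.

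Counted over the 9 genes, LMPP against CLP gave 3 lower in LMPP (Ccnd3, Ccne1 and Ccne2) and 0 higher in limma, where 2.8% of all tested genes were called lower and 7.23% higher. At an unadjusted p under 0.05, 2 were higher, Ccnd1 and Cdk6. The count was 3 without the haemoglobin-rich pair and 2 without the CLP libraries of batch 2. CLP against GMP gave 5 higher in CLP (Ccnd3, Ccne1, Ccne2, Cdk2 and Rb1) and 1 lower (Cdk6), beside 13.9% and 9.96% of all tested genes. That count of 6 fell to 3 without the haemoglobin-rich pair and to 3 without the CLP libraries of batch 2. LMPP against GMP gave 0 calls in limma in either direction, beside 21.3% of tested genes called higher and 7.62% lower. Without the CLP libraries of batch 2 it gave 4 higher, where 3793 of 12406 tested genes were called higher and 1480 lower. In the main limma fit of LMPP against GMP, 1 of the 9 genes, Ccnd3, had an unadjusted p under 0.05 (0.0393). Leaving out CLP batch 1 replicate 2, which enters only through the shared spread, made Ccnd3 a call there (adjusted p = 0.0128). The ranges of the libraries did not overlap for 2 genes in LMPP against CLP (11.1% of tested genes), 3 in LMPP against GMP (30.5%, a share near that of the members) and 3 in CLP against GMP (20.9%). The 3 comparisons share their libraries and are given side by side only. Across all tested genes the median log2 difference was 0.17, 0.24 and 0.09 in LMPP against CLP, LMPP against GMP and CLP against GMP. Median-ratio scaling brought these to 0.02, 0.02 and 0.00. Relative to the median of all genes the differences for LMPP against CLP were -2.15 for Ccnd3, -1.46 for Ccne1 and -1.45 for Ccne2. On that footing the D cyclin differences for LMPP against GMP were 0.92 for Ccnd1, 0.18 for Ccnd2 and 0.35 for Ccnd3.

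**Figure D4:**
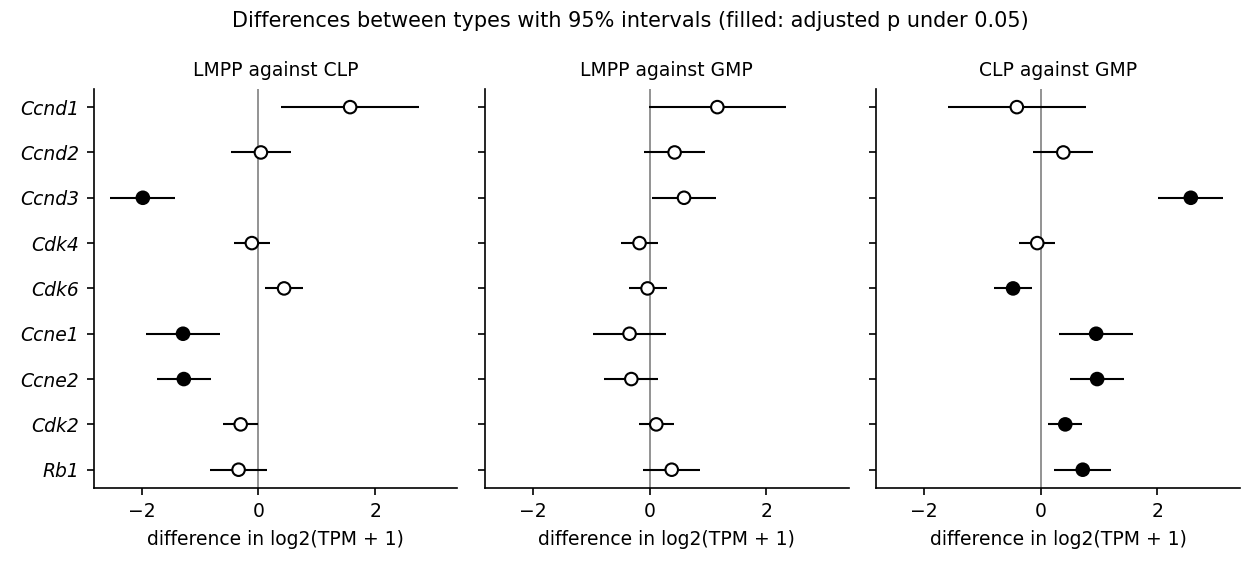
Differences in log2(TPM + 1) between types for the 9 genes, with 1 panel per comparison, a positive value for a higher level in the type named first, lines for 95% intervals and filled points for a limma adjusted p under 0.05. Ccnd3 has the largest difference in both comparisons with CLP, and no point is filled for LMPP against GMP.

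Inside CLP the 2 batches differed in 6 of the 9 genes, in opposite directions. In limma, with 2 libraries against 2, batch 2 was higher in Rb1 by a log2 difference of 2.02 (SE 0.194, adjusted p = 8.92e-05), in Ccnd3 by 1.32 (SE 0.271, adjusted p = 0.0048) and in Ccne2 by 1.30 (SE 0.261, adjusted p = 0.00442). Ccnd1 fell by 2.47 (SE 0.478, adjusted p = 0.00361), Ccnd2 fell by 0.97 (SE 0.164, adjusted p = 0.00173) and Cdk4 fell by 0.73 (SE 0.144, adjusted p = 0.00394). Of all tested genes 21.3% were higher and 10.7% lower, so a batch difference was common. The difference between types differed between the batches for Ccnd2 in LMPP against CLP, at 1.07 (SE 0.232, limma adjusted p = 0.0224), 1 of 9 genes beside 8.58% of tested genes. In CLP against GMP it did so for Ccnd1, Ccnd2 and Rb1, beside 5.48%, and in LMPP against GMP for 0 of the 9, beside 0.0157%, with 1 gene, Cdk6, at an unadjusted p under 0.05.

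B lineage markers moved with Ccnd3 across the CLP libraries. The summed level of 10 such markers was 983 and 91.9 TPM (batch 1) or 4832 and 6078 TPM (batch 2), against 34.2 to 123 TPM in LMPP and 34.1 to 44.6 TPM in GMP. CLP batch 1 replicate 2, with 83.08 TPM of Ccnd3, had a B lineage sum above that of every GMP library. Its sum was also above every LMPP library except the haemoglobin-rich LMPP batch 2 replicate 1, at 123 TPM. S, G2 and mitosis genes moved too: the sum of 16 was 1290 and 1037 TPM (CLP batch 1) or 3784 and 4070 TPM (CLP batch 2), against 1121 to 1744 TPM in LMPP and 883 to 1237 TPM in GMP. Among the batch 1 libraries these mitotic sums reached 1121 and 1312 TPM for LMPP, and 1237 and 1211 TPM for GMP. CLP batch 1 replicate 1 lay between the LMPP libraries of that batch. CLP batch 1 replicate 2 lay below every LMPP and GMP library of it. The part of B lineage cells and of cycling cells in the CLP levels of Ccnd3, Ccne2 and Rb1 was not tested.

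**Figure D5:**
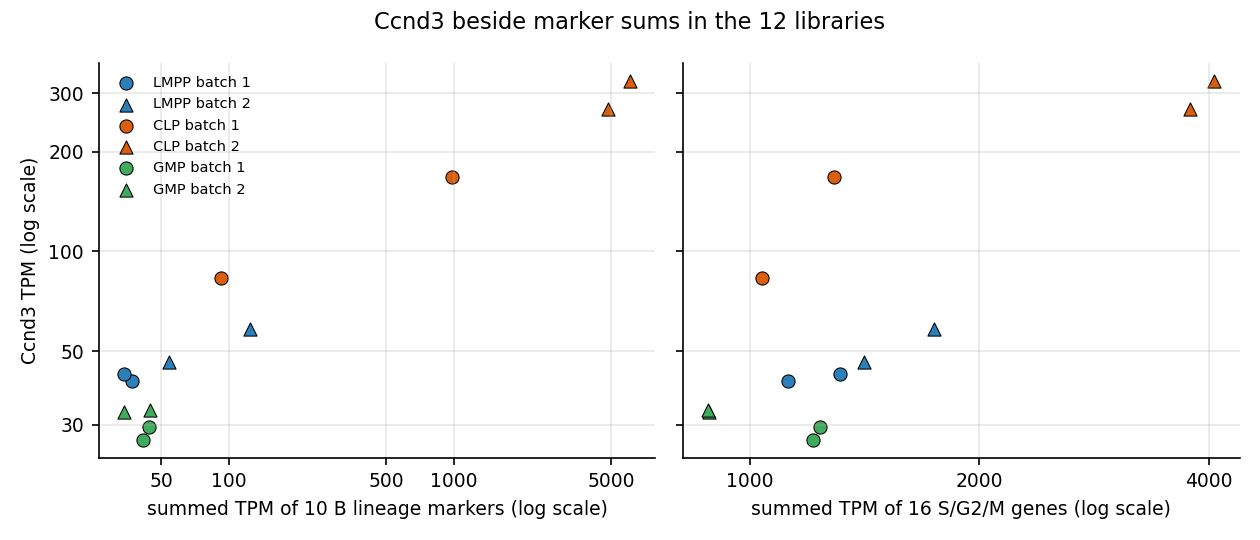
TPM of Ccnd3 (y axis, log scale) against the summed TPM of 10 B lineage markers (left, log scale) and of 16 S, G2 and mitosis genes (right, log scale), with 1 point per library, colours for types and shapes for batches. The CLP libraries of batch 2 are high on all axes. Both CLP libraries of batch 1 lie above the LMPP and GMP libraries in Ccnd3. Their B lineage sums are 983 and 91.9 TPM and their mitotic sums 1290 and 1037 TPM.

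Other genes of the pathway were read from lists and are described by counts. Beside them stand the shares of all tested genes called by limma: 13.9% higher and 9.96% lower in CLP against GMP, 21.3% and 7.62% in LMPP against GMP, and 7.23% and 2.8% in LMPP against CLP. Without the CLP libraries of batch 2, limma called 1803 of 12406 tested genes higher and 1464 lower in CLP against GMP. In that setting it called 3793 and 1480 in LMPP against GMP, and 655 and 233 in LMPP against CLP. Of 7 inhibitors of the INK4 and CIP/KIP families, which block the cyclin-kinase pairs, 4 were tested, and all 4 were higher in CLP than in GMP: Cdkn1a by a log2 difference of 2.89, Cdkn2d by 1.59, Cdkn2c by 1.32 and Cdkn1b by 1.09. The list's median difference was 1.45, beside 0.09 over all genes. Cdkn1a encodes p21, which is induced by p53, and had mean levels of 123 ± 40.3 TPM (CLP), 36.1 ± 21 TPM (LMPP) and 16.3 ± 7.27 TPM (GMP). It was the only inhibitor called in LMPP against CLP, at -1.85. Against GMP, LMPP was higher in Cdkn1b (p27) by 1.36 and in Cdkn1a by 1.04. Without the CLP libraries of batch 2, Cdkn1a was the 1 inhibitor called in CLP against GMP, and without the haemoglobin-rich pair Cdkn2c was no longer called.

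Among 12 pocket proteins and E2F or DP factors, 4 were higher in CLP than in GMP and 0 lower: E2f2 by 2.31, E2f7, a repressor of the family, by 1.62, Tfdp2 by 0.85 and Rbl1 by 0.54. The same list had 5 higher in LMPP than in GMP (Tfdp2 at 1.16, E2f5 at 0.86, E2f7 at 0.76, E2f3 at 0.67 and Rbl2 at 0.66) and 1 lower, Tfdp1 at -0.62. In LMPP against CLP, Rbl2 was higher by 0.61, and E2f7 at -0.86 and Tfdp1 at -0.45 were lower. Without the CLP libraries of batch 2, 0 of the 12 were called in LMPP against CLP in limma (3 at an unadjusted p under 0.05), and E2f7 and Tfdp2 were the calls left in CLP against GMP. Without the haemoglobin-rich pair, 0 of the 12 were called in LMPP against CLP either (3 at an unadjusted p under 0.05 in limma), Rbl1 was lost in CLP against GMP, and E2f5 and E2f7 were lost in LMPP against GMP, where Rbl1 was gained.

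Of the 25 G1/S targets of E2F, mostly replication genes, 1 was called in LMPP against CLP: Uhrf1, at -0.93 on the log2 scale. In CLP against GMP 3 were higher, Ccna2 at 1.19, Uhrf1 at 0.67 and Slbp at 0.65, beside 13.9% of all tested genes. In LMPP against GMP 3 were lower, Cdc45 at -0.72, Mcm5 at -0.65 and Mcm2 at -0.53, beside 7.62%. The list's median was 0.09 in CLP against GMP, the same as that of all genes, and -0.25 in both comparisons of LMPP. Without the haemoglobin-rich pair, Mcm5 was the 1 call left in LMPP against GMP. In that setting limma called 0 of the 25 in LMPP against CLP (3 at an unadjusted p under 0.05) and 0 in CLP against GMP (4 at an unadjusted p under 0.05). Without the CLP libraries of batch 2, Pola1, higher in LMPP, was the 1 call in LMPP against CLP, and 5 were called in LMPP against GMP, with Cdc45, Mcm2 and Mcm5 among them. In CLP against GMP 0 were then called in limma, and 1 had an unadjusted p under 0.05.

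Of 14 tested genes for activation and turnover of the cyclins and kinases, Skp2, whose product marks p27 for destruction, was lower in LMPP than in CLP by a log2 difference of -0.74. Fbxw7, whose product marks cyclin E for destruction, was higher in CLP than in GMP by 0.92 and Ppm1d, a phosphatase of the p53 pathway, by 0.69, while 0 were called by limma in LMPP against GMP (2 at an unadjusted p under 0.05). None of these 3 calls was made without the CLP libraries of batch 2, where 3 genes of the list were higher in LMPP than in GMP. Without the haemoglobin-rich pair the Fbxw7 call was kept and the other two were lost. Of 16 genes of S, G2 and mitosis, 7 were higher in CLP than in GMP, led by Cenpf at 2.00, Mki67 at 1.37 and Top2a at 1.31, with a list median of 0.99. That count was 1 (Foxm1) without the CLP libraries of batch 2, and the median 0.13. Without the haemoglobin-rich pair it was 3 (Cenpf, Foxm1 and Top2a), and the median 0.74. Cenpf was also higher in LMPP than in GMP, by 1.61, the 1 call of the list there, and 5 were called without the CLP libraries of batch 2. In LMPP against CLP, 0 of the 16 were called by limma, with 3 at an unadjusted p under 0.05, all lower in LMPP. Without the CLP libraries of batch 2 the list median of that comparison turned from -0.60 to 0.32. In that setting limma again called 0, and 2 were higher in LMPP at an unadjusted p under 0.05.

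Between the CLP batches all 16 of the S, G2 and mitosis genes were called higher in batch 2, beside 21.3% of all tested genes, led by Cenpf at 2.52, Ccnb1 at 2.40 and Mki67 at 2.27. Of the G1/S targets 16 of 25 were higher, led by Rrm2 at 2.29, Ccna2 at 1.76 and Pcna at 1.57. Of the activation and turnover genes 8 of 14 were higher, with Ppm1d at 1.25, Fbxw7 at 1.11 and Wee1 at 0.96 in front. E2f2 at 3.1, E2f8 at 1.94, Rbl1 at 1.09 and E2f7 at 0.98 were higher among the 12 pocket proteins and factors. Of the inhibitors, Cdkn2c at 1.80, Cdkn2d at 1.72 and Cdkn1b at 1.16 were higher. Limma called 0 genes of the 5 lists lower in batch 2, also at an unadjusted p under 0.05, although some that were not called had negative differences, such as Fbxo31 at -0.44 and E2f6 at -0.35.

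The genes whose log2 level followed each member most closely over the 12 libraries were sought among tested genes whose mean reached 5 TPM in 1 type or more. The Pearson correlations are descriptions over libraries that share types and batches. Ccnd3 was followed by Sipa1 (r = 0.992), Rag1, a subunit of the antigen receptor recombinase (0.982), and Bfsp2 (0.978). The mean of Rag1 was 36.2 TPM in CLP against 1.45 TPM in LMPP and 0.115 TPM in GMP. Ccne2 was followed by Uhrf1, a partner of the maintenance DNA methyltransferase (0.973), Maml1 (0.964) and Atp13a3 (0.963), and Ccne1 by B3gnt2 (0.937), the histone chaperone Asf1b (0.909) and the B cell receptor chain Cd79b (0.892). Cdk2 was followed by Cyb561a3 (0.958), Thy1 (0.947) and the transcription factor Foxo1 (0.944). Ccnd2 was followed by the transcription factor Runx2 (0.939), Ptprs (0.934) and Tns1 (0.930), and Ccnd1 by 2410002F23Rik (0.956), Fbxl17 (0.945) and Ccdc117 (0.941). For Cdk4 these were Psmg4 (0.941), Exosc4 (0.930) and Rpl15-ps3 (0.929), for Cdk6 Frmd4a (0.920), Coa5 (0.920) and Cog4 (0.919), and for Rb1 the histone gene H3f3a (0.988), Sept7 (0.987) and C330007P06Rik (0.977). Among the members themselves r was highest between Ccnd3 and Cdk2 (0.917) and lowest between Cdk4 and Rb1 (-0.866).

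Some of the genes overlap others, and the sources used here do not say whether reads were counted by strand. Bysl lies on the other strand of Ccnd3 and was at no more than 14.5 TPM in any library, below every Ccnd3 value, and the pseudogene Ccnd3-ps at no more than 0.15 TPM. Tspan31 lies on the other strand of Cdk4 (at most 43.5 TPM) and Pmel of Cdk2 (at most 0.66 TPM). For LTO1 beside Ccnd1 (at most 14.9 TPM), Ints8 beside Ccne2 (at most 23.5 TPM) and Rcbtb2 beside Rb1 (at most 42.4 TPM) the level was similar to that of the member, so these 3 members are the less certain ones. Rb1 is also overlapped by Lpar6 on the other strand (at most 16.7 TPM) and by Gm17233 on the same strand (at most 6.18 TPM).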

How the data were processed

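RNA from 12 libraries of 3 sorted progenitor types was compared. The values are TPM as the authors deposited them, in 1 table of all libraries, and the submitters' processing notes name mm10 with RSEM 1.2.12, Bowtie2 2.2.0 and edgeR 3.10.0 but no settings. TPM keeps no read total, so the depth is unknown and no counting interval can be given. Another 17 columns whose names match none of these samples were left unused. Symbols and positions came from the GENCODE annotation of mm10, for 37607 of 38924 identifiers.

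Values were taken as log2(TPM + 1), so fold changes of low genes are understated. Genes that reached 1 TPM in 4 or more libraries were fitted with limma 3.58.1 in R 4.3.3, with type and an additive batch term on all 12 libraries (8 residual degrees of freedom), trended moderation, and Benjamini-Hochberg adjustment over all tested genes. Calls were made at an adjusted p under 0.05, two-sided. Differences between batches came from a fit of the 6 type-by-batch means (6 residual degrees of freedom). Shares were computed per library. The fit was tested on simulated data. No 2 libraries held identical values. Whether the library number in the titles pairs libraries across types could not be decided. With 2 libraries per type and batch, the deviations from their mean mirror each other, so the correlations of the 10 same-numbered pairs partly repeat. The 1 above 0.1, at 0.169, was the haemoglobin-rich pair. From the pathway lists the called genes with the largest differences, up to 3, and every gene of a count of 5 or fewer are named. List counts without some libraries, and Foxm1 in one of them, were added after the data were seen. Skp1 matched no symbol. The members and lists were chosen with earlier results of these data known. Alternatives covered pseudocount, filter, scaling, moderation, batch term, the types fitted, each batch alone and libraries left out.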

Additional observations from a re-analysis of the deposited data

Results flagged for a closer look

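Of 27 sets of 4 libraries (9 genes in 3 types), 1 had a library far from the other 3 by Dixon's criterion, which chance meets in about 1 of 20 sets: Cdk4 in GMP batch 1 replicate 1, at 418.2 TPM against 361.58 to 366.29 TPM. The difference between types differed between the batches in 4 cases, as batch 2 minus batch 1 on the log2 scale in limma. Ccnd2 differed in LMPP against CLP by 1.072 (adjusted p = 0.0224) and in CLP against GMP by -1.333 (adjusted p = 0.0116), where both CLP libraries were above GMP in batch 1 and below it in batch 2. Ccnd1 differed in CLP against GMP by -3.074 (adjusted p = 0.0301), with both CLP libraries above GMP in batch 1 and both below in batch 2. Rb1 differed in CLP against GMP by 1.125 (adjusted p = 0.0441). All 4 cases involve the CLP libraries of batch 2, in which Flt3 was at 8.91 and 16.98 TPM and B lineage markers summed to 4832 and 6078 TPM, and the part of these in the differences was not tested.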

How the results depend on the processing

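No difference that was called for any of the 9 genes turned its sign in any alternative. The share of Ccnd3 among the D cyclins in CLP was 74.6% with all 4 libraries. It fell to 59.9% without both CLP libraries of batch 2 and rose to 81.5% without CLP batch 1 replicate 2. In LMPP the alternatives gave 39.1% to 43.5%, and in GMP 41.3% to 42.7%. Depth is unknown, so what depth limits could not be assessed, and each type rests on 4 libraries. Genes called numbered 1276 in LMPP against CLP, 3676 in LMPP against GMP and 3040 in CLP against GMP. Without the batch term these were 609, 2358 and 1944. With a replicate block (batch and label number together) in place of batch, LMPP against CLP gave 212, LMPP against GMP 2214 and CLP against GMP 2580. Members called in CLP against GMP were then 3. With only the 2 types in the fit, LMPP against CLP gave 536. LMPP against GMP gave 5183 of 12718 genes in that setting, 3729 of them higher, and members called there were 3, all higher. Without both CLP libraries of batch 2, LMPP against GMP gave 5273 of 12406 genes, 3793 of them higher. In batch 2 alone, LMPP against GMP gave 1126 and CLP against GMP 1684. Leaving out 1 library gave 606 to 1470 genes in LMPP against CLP, 2557 to 4547 in LMPP against GMP and 2075 to 3100 in CLP against GMP. The lower counts in LMPP against CLP came without LMPP batch 1 replicate 1 (606), LMPP batch 2 replicate 3 (656) and LMPP batch 2 replicate 1 (760).

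Members called in LMPP against CLP numbered 3, with 1 in batch 1 alone and 2 to 4 with 1 library left out. In LMPP against GMP the 0 became 1 with median-ratio scaling (Cdk4 lower), 1 with quantile normalization (Ccne2 lower), 2 in batch 1 alone (Ccnd1 and Ccnd2 higher), 4 without both CLP libraries of batch 2 (Ccnd1, Ccnd2, Ccnd3 and Rb1 higher), and 0 to 1 with 1 library left out. In CLP against GMP the 6 became 3 without a filter, 2 with quantile normalization, 1 without the batch term, 3 in batch 1 alone, 3 in batch 2 alone, 3 without the haemoglobin-rich pair, 3 without both CLP libraries of batch 2, and 2 to 6 with 1 library left out. It was 2 without CLP batch 2 replicate 1 or either GMP library of batch 2, and 3 without CLP batch 2 replicate 2. The cause of these shifts was not tested. Scaling moved the split of higher and lower calls. It went from 920 and 356 to 559 and 602 (median-ratio) or 635 and 595 (quantile) in LMPP against CLP. In LMPP against GMP it went from 2707 and 969 to 1716 and 1868 or 1552 and 1659, and in CLP against GMP from 1773 and 1267 to 1524 and 1699 or 1426 and 1588. Between the CLP batches it went from 2711 and 1362 to 1997 and 1917 or 1696 and 1741.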
